A study of Mus musculus with 2 samples.

Results

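Natural killer (NK) cells with Ly49 receptors were examined in YUMMER1.7 melanomas. They were chosen by a rule on the counts of each cell, where a unique molecular identifier (UMI) stands for 1 counted transcript molecule. A member held at least 1 UMI of Ncr1 and of Klrb1c, no UMI of Cd3d, Cd3e or Csf1r, and at least 2 UMIs of Klra4, Klra8 and Klra9 together. Of 10100 cells, 471 were members, which were 205 of 4524 cells in the wild-type (WT) library and 266 of 5576 cells in the Siah2-/- library. These 8 genes selected the cells, so their levels are given as a description. Both groups of hosts were male C57BL/6 mice aged 8 weeks, either WT or lacking Siah2, which encodes a RING finger ubiquitin ligase. All carried tumors of YUMMER1.7, an immunogenic BRAF-mutant mouse melanoma line, which were collected on day 11. Sorted CD45+ leukocytes were mixed with a smaller number of CD45- cells, in a ratio that the protocol and the design text state differently. Each genotype gave 1 droplet library, from a number of tumors that the sources do not state, so genotype, tumors, library and sequencing lane cannot be told apart. With 1 library per genotype no test was possible, and each interval given in parentheses is a 95% interval that covers counting error only.

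Siah2 (chr3:58674938-58692400, minus strand, GRCm38) had 11 UMIs in WT members and 3 UMIs in Siah2-/- members. That is 4.94 and 1.32 counts per 1000000 UMIs (CPM), a log2 ratio of −1.91 (−4.39 to 0.01). Free RNA, taken from barcodes of at most 100 UMIs, held Siah2 at 9.97 and 16.3 CPM. The assay counts 3′ ends and no source used here states which part of the gene was removed, so the labels are not checked by these counts. WT members held 2228540 UMIs in all, with a median of 9385 per cell (lowest 6705, highest 39462). Siah2-/- members held 2279062 UMIs, with a median of 7830 per cell (lowest 4897, highest 31913). No barcode was shared between the members of the libraries, whereas 34 barcodes were shared among all cells.

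Ly49 receptors are lectin-like proteins by which mouse NK cells read class I MHC molecules on other cells. Inhibitory members carry a tyrosine motif near the start of the protein that recruits phosphatases, whereas activating members lack it and signal through the adaptor DAP12, encoded by Tyrobp. Each NK cell displays its own subset of the family, together with or in place of the NKG2A and CD94 receptor encoded by Klrc1 and Klrd1. Among the 6 Ly49 genes with most UMIs here, Klra1, Klra3, Klra7 and Klra9 encode the inhibitory receptors Ly49A, Ly49C, Ly49G and Ly49I, and Klra4 and Klra8 encode the activating receptors Ly49D and Ly49H. They lie in a cluster on the minus strand of chromosome 6 (GRCm38). Klra1 spans chr6:130363917-130386874 and Klra3 spans chr6:130323289-130337574. Klra7 spans chr6:130218605-130233322 and Klra9 spans chr6:130178675-130193112. Klra8 spans chr6:130115226-130129898 and Klra4 spans chr6:130043731-130067271. Their first 30 coding bases, read 5′ to 3′ from the GENCODE annotation of GRCm38, are shown because codon 8, in capitals, sets the classes apart. The start codon lies in exon 2 of each gene except Klra1, where it lies in exon 4.
Klra1: atgagtgagcaggaggtcactTATtcaatg
Klra3: atgagtgagccagaggtcactTACtcaact
Klra7: atgagtgagcaggaggtcactTACtcaact
Klra9: atgaatgagccggaggtcactTACtcaact
Klra4: atgactgaacaggaagacactTTCtcagct
Klra8: atgagtgagcaggaggtcactTTCccaact
Codon 8 encodes tyrosine in the inhibitory genes (TAT or TAC) and phenylalanine in the activating genes (TTC).

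These genes are near copies, which bears on how their counts can be told apart. In the last 500 bases of each transcript, where 3′ reads fall, words of 31 bases found in none of the other 5 genes made up 96.4% of the words of Klra7, 90.4% of Klra1 and 86.2% of Klra4. The share was 66.0% for Klra8, 54.7% for Klra3 and 39.6% for Klra9. Klra9 shared 46.3% of its words with Klra3, and Klra8 shared 33.8% with Klra9. Counts of Klra3, Klra8 and Klra9 are therefore the less certain ones, and those of Klra7, Klra1 and Klra4 the more certain.

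The label was checked against further NK genes that the rule did not use. In counts that were not thinned to an equal depth, Nkg7, Klrd1, Tyrobp and Id2 were detected in 100% of members of both libraries. With each cell thinned to 4000 UMIs, Klrd1 was detected in 97.6% of WT and 98.1% of Siah2-/- members. Klrk1, which encodes NKG2D, was detected in 99.5% and 99.6% unthinned and in 91.2% and 97.7% at 4000 UMIs. Eomes, a transcription factor that sets NK cells apart from type 1 innate lymphoid cells (ILC1), was detected in 36.1% and 38.7% at 4000 UMIs and in 62.4% and 60.2% unthinned. Itga2, which encodes the NK surface marker CD49b, was seen in only 0.976% and 1.88% of members unthinned. Itga1, from a list of 12 ILC1 genes, was seen in 21.95% of WT and 12.8% of Siah2-/- members unthinned. Of the ILC1 list, 3 or more genes were seen in 11.7% of WT and 10.9% of Siah2-/- members unthinned. Itgam, a marker of late NK maturation, was seen in 1.46% and 5.26% at 4000 UMIs and in 2.93% and 10.2% unthinned. The defining T cell genes Cd3d and Cd3e and the macrophage gene Csf1r were at 0 by the rule, and the 9 measured T cell markers summed to 147 and 258 CPM. The 12 macrophage markers summed to 548 and 776 CPM in members, against 15412 and 14983 CPM in free RNA, and 3 or more of them were seen in 47.8% of WT and 71.8% of Siah2-/- members unthinned. From C1qa, C1qb and C1qc, free RNA was estimated to give at most 2.83% of the UMIs of WT members and 5.34% of those of Siah2-/- members. Tumor and stroma markers summed to 257 CPM in WT members and 15.4 CPM in Siah2-/- members. Of the WT members, 6 held 3 or more of these markers, and no Siah2-/- member did.

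The members were compared with the cells most like them. A total of 319 WT and 384 Siah2-/- cells passed the rule without its Ly49 condition. Of these, 102 and 105 had no UMI of Klra4, Klra8 or Klra9 and are called Ly49-null, 12 and 13 had exactly 1 UMI, and the members were the remaining cells. The name refers to these genes alone, as Klra7 was seen in 47.1% and 44.8% of Ly49-null cells unthinned. The plot of summed Ly49 UMIs shows a peak at 0 and a broad range above the cutoff, with 162 WT and 227 Siah2-/- cells at 6 UMIs or more. Just inside the cutoff, the 10 WT and 6 Siah2-/- cells with 2 UMIs held Gzma at 5789 and 12852 CPM and Klrc1 at 158 and 590 CPM. Just outside it, the cells with 1 UMI held Gzma at 1894 and 4289 CPM and Klrc1 at 218 and 477 CPM.

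**Figure D1:**
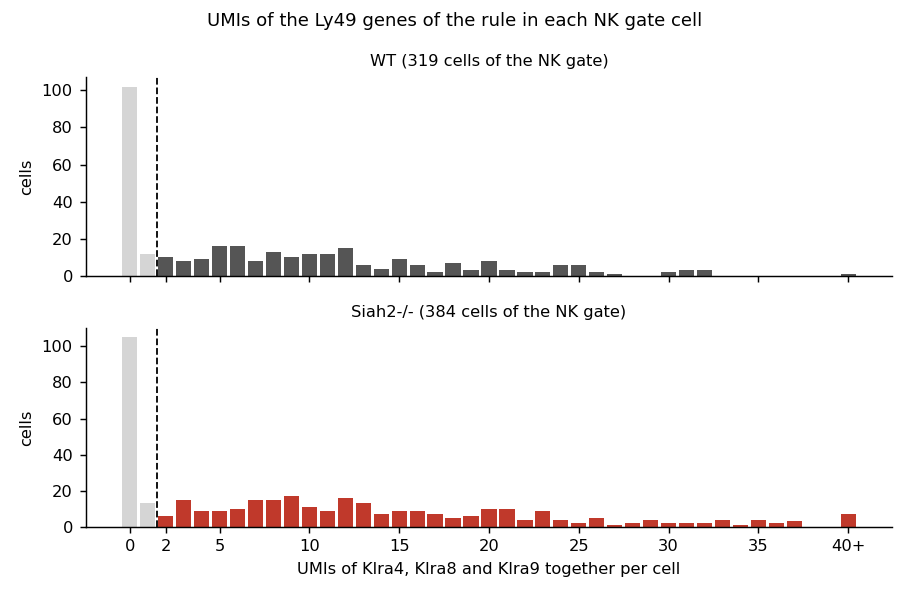
Histograms of the summed UMIs of Klra4, Klra8 and Klra9 per cell (x axis, UMIs; cells with 40 or more in the last bar) against the number of cells (y axis), for the 319 WT and 384 Siah2-/- cells that passed the rule without its Ly49 condition. Bars right of the dashed line are members; 102 WT and 105 Siah2-/- cells stand at 0.

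Members differed among themselves in the Ly49 genes that chose them, and the shares of members that follow are a description from unthinned counts, with median depths of 9385 UMIs in WT and 7830 UMIs in Siah2-/-. Klra8 was detected in 62.4% of WT and 71.8% of Siah2-/- members, Klra4 in 56.1% and 59.0%, and Klra9 in 48.3% and 45.1%. Summed over members, Klra8 stood at 466 and 705 CPM, Klra4 at 391 and 724 CPM, and Klra9 at 265 and 338 CPM. Among cells with a Klra4 UMI, the median was 6.28 UMIs per 10000 UMIs of the cell in WT and 11.0 in Siah2-/-. A single gene of the 3 was seen in 46.8% of WT and 39.8% of Siah2-/- members, and all 3 in 13.7% and 15.8%. The combination of Klra4 and Klra8 without Klra9, both activating receptors, was held by 16.6% (11.8 to 22.4) of WT and 26.3% (21.1 to 32.0) of Siah2-/- members. Klra4 alone was held by 17.1% (12.2 to 22.9) and 10.2% (6.80 to 14.4). Over all cells of the NK gate, each thinned to 4000 UMIs, Klra4 and Klra8 were seen together in 14.7% of WT cells, where the product of their shares was 11.8%, and in 26.6% of Siah2-/- cells, where the product was 19.0%.

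Inhibitory Ly49 genes outside the rule were also carried by members. Klra7 was the most abundant, at 625 CPM in WT and 882 CPM in Siah2-/- members against 477 and 552 CPM in Ly49-null cells. After each cell had been thinned to 4000 UMIs, Klra7 was detected in 60.0% (52.9 to 66.8) of WT and 66.2% (60.1 to 71.8) of Siah2-/- members and in 43.1% (33.4 to 53.3) and 40.95% (31.5 to 51.0) of Ly49-null cells. Without thinning, these shares were 69.8% and 71.8% of members and 47.1% and 44.8% of Ly49-null cells. Macrophages, which should lack the gene, had a Klra7 UMI in 0.769% of WT and 2.95% of Siah2-/- thinned cells, with median depths of 10528 and 9698 UMIs. Klra1 was higher in members than in Ly49-null cells, at 120 against 48.1 CPM in WT and 138 against 55.5 CPM in Siah2-/-, a log2 ratio of 1.32 in each library (0.88 to 1.78 and 0.87 to 1.78). At 4000 UMIs it was detected in 18.0% (13.0 to 24.0) of WT members and 6.86% (2.80 to 13.6) of Ly49-null cells, and in Siah2-/- in 15.04% (11.0 to 19.9) and 10.5% (5.35 to 18.0). The intervals overlapped in both libraries. In unthinned counts 1 cell held 24% of the Klra1 UMIs of WT Ly49-null cells and 29.2% of those of Siah2-/- Ly49-null cells. Klra3 stood at 175 and 219 CPM in members and 201 and 156 CPM in Ly49-null cells, with the ratio below 0 in WT (−0.20, −0.45 to 0.05) and above it in Siah2-/- (0.48, 0.21 to 0.77). Klra5, Klra6, Klra2 and Klra17 stayed below 20 CPM in members of both libraries. In unthinned counts, none of Klra1, Klra3 and Klra7 was seen in 15.1% of WT and 15.8% of Siah2-/- members, against 36.3% and 35.2% of Ly49-null cells. Most members thus held transcripts of an inhibitory Ly49 gene beside the genes of the rule.

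Genes known from ILC1 were also compared. Of the 4 genes of the 12-gene ILC1 list that were tested, Tmem176a and Tmem176b were lower in members than in Ly49-null cells, Itga1 and Rgs2 were below 1.5-fold in WT, and the list summed to 232 and 409 CPM in members and 444 and 976 CPM in Ly49-null cells. In unthinned counts, a UMI of Tmem176a, Tmem176b or Il7r was present in 30.4% of WT and 35.2% of Siah2-/- Ly49-null cells, against 7.32% and 5.64% of members. Il7r alone was present in 1.96% and 5.71% of Ly49-null cells, so most of these cells were chosen by Tmem176a or Tmem176b, which macrophages also express. Tmem176b was detected in 51.5% of WT and 15.5% of Siah2-/- macrophages at 4000 UMIs, and free RNA could account for 23.5% and 87.7% of its UMIs in members. With these cells left out of both sides, a choice made after seeing the data, the log2 ratio of members over Ly49-null cells for Klra7 moved from 0.39 to −0.10 in WT and from 0.68 to 0.05 in Siah2-/-. That for Klra1 remained above 0, at 1.02 and 0.72. Klra1 was over 1.5-fold higher in members of both libraries with and without these cells, whereas Klra7 had passed 1.5-fold in Siah2-/- alone and did not without them.

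**Figure D2:**
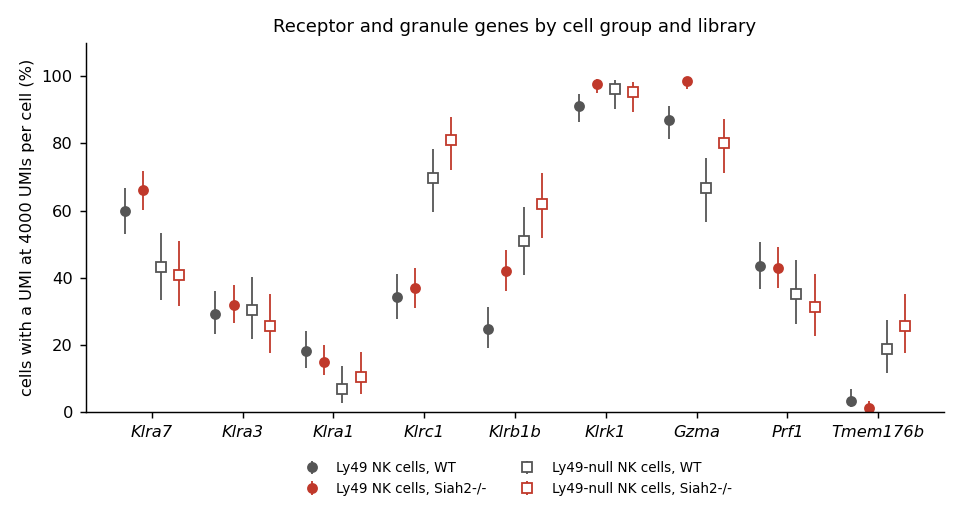
Share of cells with a UMI (y axis, percent) for receptor and granule genes (x axis) after thinning each cell to 4000 UMIs, in members (filled circles) and Ly49-null NK cells (no UMI of Klra4, Klra8 or Klra9, open squares) of WT (grey) and Siah2-/- (red). Bars are 95% exact binomial intervals; Klrc1 was seen in 34.1% and 36.8% of members and in 69.6% and 81.0% of Ly49-null cells.

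Klrc1, which encodes the inhibitory receptor NKG2A, was lower in members than in Ly49-null cells. It stood at 150 CPM in WT and 229 CPM in Siah2-/- members, against 391 and 721 CPM in Ly49-null cells. The log2 ratios of members over Ly49-null cells were −1.38 (−1.59 to −1.17) and −1.65 (−1.82 to −1.48), and −1.10 and −1.42 without cells holding Tmem176a, Tmem176b or Il7r. In Siah2-/- cells the level of Klrc1 was lower with each further Ly49 gene of the rule, at 721 CPM with none and 324, 185 and 110 CPM with 1, 2 and 3. In WT cells it stood at 391, 178, 121 and 149 CPM, and the intervals with 2 and 3 genes overlapped. At 4000 UMIs, Klra4 and Klrc1 were seen together in 10.4% of Siah2-/- cells of the NK gate, where the product of their shares was 19.8%, and in 10.7% of WT cells, where it was 15.2%. Pairs with Klra7, Klra8 and Klra9 were also below the product in both libraries. Klra3 and Klrc1 were together in 15.05% of WT cells, where the product was 13.6%, and in 13.3% of Siah2-/- cells, where it was 14.7%. Klra1 and Klrc1 were together in 5.64% of WT cells, against 6.44%, and in 7.03% of Siah2-/- cells, against 6.83%. Klrd1, the partner of NKG2A, did not follow this pattern and stood at 1370 and 1631 CPM in members and 1583 and 1669 CPM in Ly49-null cells. Klrb1b, which encodes an inhibitory NKR-P1 receptor, was also lower in members, with log2 ratios of −1.03 (−1.33 to −0.74) and −1.19 (−1.41 to −0.97).

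**Figure D3:**
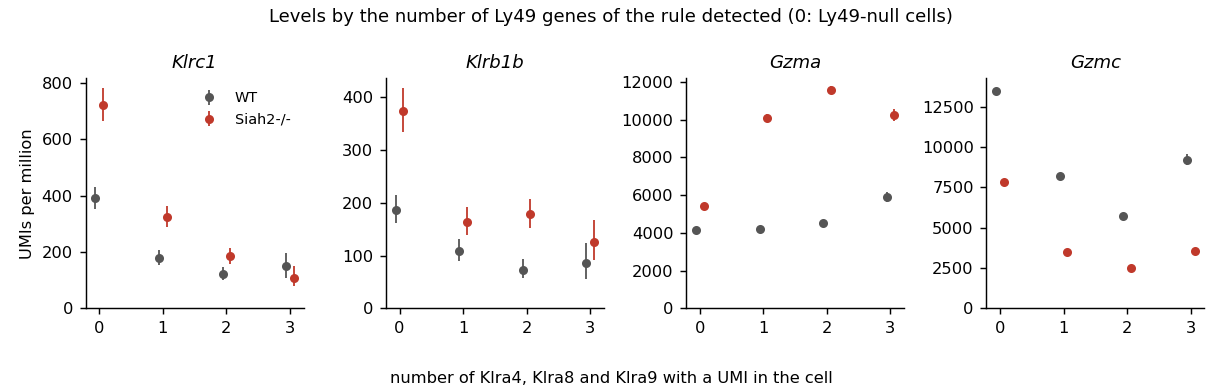
Levels of Klrc1, Klrb1b, Gzma and Gzmc (y axes, UMIs per 1000000) in NK cells grouped by how many of Klra4, Klra8 and Klra9 had a UMI (x axis; 0 are Ly49-null cells), in WT (grey) and Siah2-/- (red) with 95% Poisson intervals. Klrc1 was highest with none, at 391 and 721 CPM, while Gzma in Siah2-/- cells stood at 5405 CPM with none and between 10079 and 11586 CPM with 1 to 3.

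Across 4129 genes tested, 18 (0.436%) were over 1.5-fold higher in members than in Ly49-null cells in both libraries and 30 (0.727%) were lower. Here tested means a mean of at least 20 CPM, and called means past 1.5-fold. With the rule applied to thinned counts, 4 of the 18 and 22 of the 30 were called again. Without cells holding Tmem176a, Tmem176b or Il7r, 8 of the 18 and 10 of the 30 were. Without cells holding an Mki67 or Top2a UMI, 8 of the 18 and 17 of the 30 were. Of 10 lectin-like receptor genes outside the rule, Klri2 was higher (log2 ratios 0.62 and 0.93) and Klrc1 and Klrb1b were lower. Of 9 other NK receptor genes, 3 were lower, namely Cd7 (−0.69 and −0.84), Lag3 (−0.71 and −0.93) and Cd160 (−0.69 and −1.49). LAG3 is a checkpoint receptor and CD160 an Ig-family receptor of NK cells. Of 16 granule and death ligand genes, Gzmc was lower, and Gzmg was higher with 92.1% and 99.8% of its UMIs in 1 member of a library. The log2 ratios of Gzmc were −0.88 and −1.35, and −0.50 and −0.75 without cells holding Tmem176a, Tmem176b or Il7r. Of 15 transcription factor genes, Zeb2, which acts in late NK maturation, was higher (0.59, −0.20 to 1.44, and 1.10, 0.21 to 2.12) and Ikzf2, which encodes Helios, was lower (−1.80 and −1.43, and −0.79 and −1.42 without the same cells). Eomes did not reach 1.5-fold in WT (0.49, 0.12 to 0.87) and stood at 0.59 (0.21 to 0.98) in Siah2-/-. Of 8 cytokine genes 1 was higher and 1 lower. Ltb, which encodes lymphotoxin beta, was lower in members (−0.79 and −1.38), and Ccl3, a chemokine gene, was higher (2.27 and 1.42) with 47.1% and 54.1% of its UMIs in 1 member. Without cells holding Tmem176a, Tmem176b or Il7r, the WT ratios of Klri2 (0.26), Cd7 (−0.42), Lag3 (−0.36), Cd160 (−0.32) and Ltb (−0.44) were below 1.5-fold. None of the 16 adaptor and signalling genes was called in either direction, and Tyrobp stood at 3457 and 3549 CPM in members and 3301 and 3311 CPM in Ly49-null cells.

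By the smaller of the log2 ratios in the 2 libraries, and leaving out genes with over 25% of the UMIs of either cell group of a library in 1 cell, which left out Klra1 and Ccl3, the highest genes in members over Ly49-null cells were H2-DMb1, Hmgn1, Khdc1c, Chchd10, Cdkn1a, Map4k4, Gstm1, Pdcd2, B4galt7 and Klri2. Khdc1c had the widest gap in Siah2-/- (29.2 against 15.4 CPM in WT and 54.8 against 15.04 CPM in Siah2-/-). Hmgn1, which encodes a nucleosome-binding protein, stood at 101 against 51.0 CPM in WT and 69.8 against 31.2 CPM in Siah2-/-, with the WT log2 ratio going from 0.99 to 0.10 when the rule was applied to thinned counts. Each of these 10 was below 1.5-fold in a library under at least 1 of the alternatives, and H2-DMb1 turned below 0 in both libraries (−0.11 and −0.17) when the rule was applied to thinned counts. Free RNA could account for 28.8% of the H2-DMb1 UMIs of WT members and 58.4% of those of Siah2-/- members. The lowest were Ly6c2, Ikzf2, Klrc1, Klk8, Ramp1, Bcl2a1d, Klrb1b, Psen2, Gzmc and Vamp4. Ly6c2, which encodes a Ly6C antigen, stood at 264 and 190 CPM in members and 1190 and 1150 CPM in Ly49-null cells. Ramp1, which encodes a partner of the CGRP receptor, stood at 27.4 and 14.9 CPM in members and 71.2 and 63.6 CPM in Ly49-null cells. Without cells holding Tmem176a, Tmem176b or Il7r, the log2 ratios of Ramp1 moved from −1.38 to −0.23 in WT and from −2.09 to −0.93 in Siah2-/-, and those of Ly6c2 from −2.17 to −1.14 and from −2.60 to −2.31.

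The share of members was then compared between the genotypes. Of WT cells 4.53% (3.94 to 5.18) were members, against 4.77% (4.23 to 5.36) in the Siah2-/- library, a log2 ratio of 0.07 (−0.19 to 0.34). Within the NK gate they made up 64.3% (58.7 to 69.5) and 69.3% (64.4 to 73.9), a log2 ratio of 0.11 (−0.16 to 0.38). When the rule was applied to counts thinned to 4000 UMIs, 139 WT and 234 Siah2-/- cells remained, 3.07% and 4.20%, and the log2 ratio was 0.45 (0.14 to 0.76). It was −0.14 (−0.31 to 0.04) when every barcode of 1000 or more UMIs was taken, with 589 and 507 members. The sign and size of the difference in the share of all cells thus varied with how depth was treated, and the CD45+ sort and the cells mixed back also set that share. Within the NK gate the log2 ratio was 0.21 (−0.10 to 0.52) and 0.01 (−0.16 to 0.19) in these settings.

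Expression in members was compared between the genotypes over 4424 genes with a mean of at least 20 CPM. In Siah2-/- members 350 genes (7.91%) were over 1.5-fold higher and 164 (3.71%) were lower than in WT members. In 60 of the tested genes 1 cell held over 25% of the UMIs of a library, and without them 341 were higher and 133 lower. With the rule applied to thinned counts, 236 of the 350 and 61 of the 164 were called again. Of the higher genes, 323 were also tested in Ly49-null cells, and 183 of them were over 1.5-fold higher there too. Of the lower genes, 130 were tested there and 44 were lower there too. Values in Ly49-null cells given beside those in members come from the same pair of libraries. Of the lower genes, 134 were at or below the level of free RNA in a library, as were 196 of the higher genes and 2923 of all genes tested.

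Granule genes moved in different directions. Gzma, which encodes granzyme A, stood at 4582 CPM in WT and 10761 CPM in Siah2-/- members, a log2 ratio of 1.23 (1.20 to 1.27). Per cell its median was 25.9 UMIs per 10000 in WT, with a range from 0 to 268, and 87.3 in Siah2-/-, with a range from 0 to 490. The distributions overlapped, but the lower quartile in Siah2-/- members, 45.0, lay above the WT median. Gzma was detected in 86.8% of WT and 98.5% of Siah2-/- members at 4000 UMIs (91.2% and 99.2% unthinned). In Ly49-null cells the log2 ratio of Gzma was 0.37 (0.31 to 0.43), from 4172 to 5405 CPM, so that its level in members over Ly49-null cells was 0.14 in WT and 0.99 in Siah2-/-. Without cells holding Tmem176a, Tmem176b or Il7r these were −0.32 and 0.38. Free RNA could account for 0.469% and 0.648% of Gzma UMIs in members. In thinned cells, a Gzma UMI was seen in 5.90% and 21.1% of macrophages and in 18.5% and 38.2% of CD8 T cells.

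Gzmc, which encodes granzyme C, was lower in Siah2-/- members, at 3064 against 7331 CPM (−1.26, −1.30 to −1.22). Its median per cell was 22.7 UMIs per 10000 in WT and 1.997 in Siah2-/-, where 1 cell held 16.5% of the UMIs. Gzmc was higher in Ly49-null cells, at 13459 and 7810 CPM, and was lower in Siah2-/- there too (−0.79, −0.83 to −0.74). Gzmb, which encodes granzyme B, stood at 3394 and 4238 CPM (0.32, 0.28 to 0.36), and Prf1, which encodes perforin, at 144 and 194 CPM (0.43, 0.22 to 0.64). Both were below 1.5-fold. Gzmd, Gzme, Gzmf and Gzmg, close relatives of Gzmc, had log2 ratios of 1.24, 1.01, 1.32 and 4.44, but 1 Siah2-/- cell held 73.0%, 82.0%, 86.2% and 99.8% of their UMIs. Without the 5% of cells with the most UMIs these 4 ratios were −0.12, −0.43, −0.996 and −1.19. Of 16 granule and death ligand genes tested, 5 were higher and 1 lower (median 0.42), against 7.91% and 3.71% of all genes. Of the 5, only Gzma did not have most of its UMIs in 1 cell. Nkg7 (0.40), Serpinb9 (0.56) and Fasl (0.44) stayed below 1.5-fold.

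**Figure D4:**
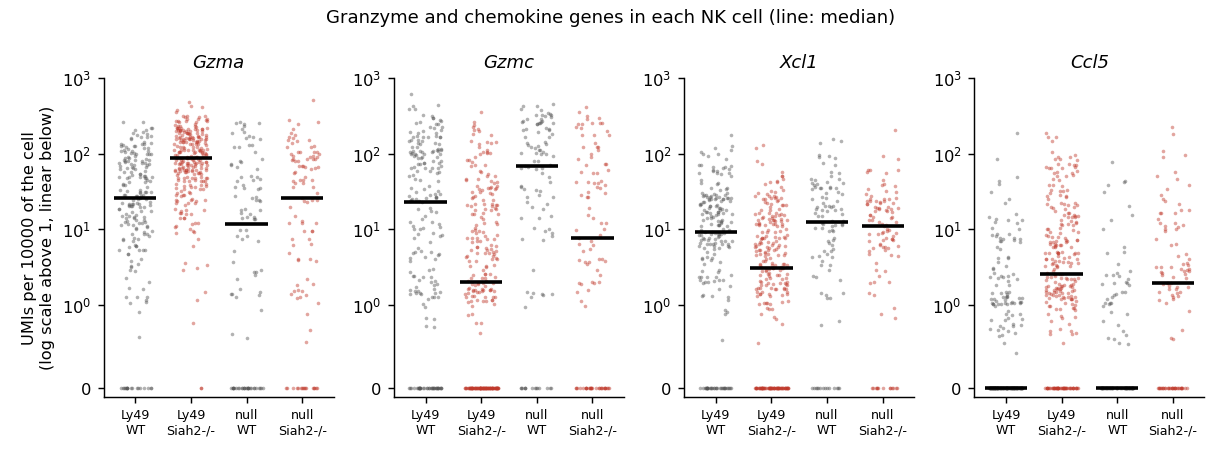
Level of Gzma, Gzmc, Xcl1 and Ccl5 in each NK cell (y axis, UMIs per 10000 UMIs of the cell, log scale above 1 and linear below), for members (Ly49) and Ly49-null cells (null, no UMI of Klra4, Klra8 or Klra9) of WT (grey) and Siah2-/- (red). Each point is a cell and each line a median; the Gzma median of members was 25.9 in WT and 87.3 in Siah2-/-.

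Among cytokine genes 4 of 8 were higher and 1 was lower, against 7.91% and 3.71% of all genes. Xcl1, which encodes a chemokine that attracts cross-presenting dendritic cells, was lower, at 1736 CPM in WT and 851 CPM in Siah2-/- members (−1.03, −1.11 to −0.95). Its median per cell was 9.24 and 3.10 UMIs per 10000. In Ly49-null cells it stood at 2317 and 1758 CPM (−0.40, −0.49 to −0.31). At 4000 UMIs Xcl1 was detected in 79.0% and 58.6% of members, 82.4% and 82.9% of Ly49-null cells and 52.1% and 25.6% of CD8 T cells. Ccl5, which encodes a chemokine that attracts T cells and monocytes, was higher, at 349 and 1206 CPM (1.79, 1.67 to 1.91), and was detected in 32.7% and 60.9% of members at 4000 UMIs. Ly49-null cells had the like ratio for Ccl5, 1.80 (1.60 to 1.99). When the rule was applied to thinned counts, the Ccl5 ratio in members was 0.69. Ifng, which encodes interferon gamma, stood at 68.7 and 182 CPM (1.41, 1.14 to 1.68), levels near those of free RNA, 89.0 and 191 CPM, of which 3.66% and 5.61% could come from it at the estimated share. At 4000 UMIs Ifng was detected in 19.5% and 33.1% of members and in 17.6% and 36.2% of Ly49-null cells. In CD8 T cells the shares with Ifng were 48.98% and 47.4%. Ccl4 had a log2 ratio of 0.68 (0.55 to 0.81), with 31.3% and 27.5% of its UMIs in 1 cell of each library. Ccl3 had one of 1.09, with 47.1% and 54.1% in 1 cell. With the rule applied to thinned counts, Ccl4 (0.37) and Ccl3 (0.55) were below 1.5-fold. Free RNA was richer in Ccl5 in both libraries (1675 and 2489 CPM), and 13.6% and 11.0% of Ccl5 UMIs in members could come from it.

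Of 15 genes for cytokine and chemokine receptors 4 were higher and none lower, against 7.91% and 3.71% of all genes. Ifngr1, a chain of the interferon gamma receptor, stood at 436 and 837 CPM (0.94, 0.83 to 1.05), and at 434 and 845 CPM in Ly49-null cells. Il12rb2, a chain of the IL12 receptor, had 35 and 85 UMIs (1.25, 0.66 to 1.86). Both chains of the IL18 receptor were higher in Siah2-/- members, Il18r1 at 0.92 (0.45 to 1.40) and Il18rap at 1.03 (0.59 to 1.49). In Ly49-null cells Il18r1 was at 1.21 (0.46 to 1.98) and Il18rap at −0.0037 (−0.70 to 0.69). Il2rb (0.30) stayed below 1.5-fold.

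Receptor genes of NK cells were compared between the genotypes, where 7.91% of all genes were higher and 3.71% lower. None of the 3 tested inhibitory Ly49 genes outside the rule passed 1.5-fold. Klra7 had a log2 ratio of 0.50 (0.40 to 0.60), Klra3 one of 0.32 (0.13 to 0.52) and Klra1 one of 0.21 (−0.03 to 0.45). Of 10 lectin-like receptor genes 3 were higher and none lower, namely Klrb1b from 91.1 to 164 CPM (0.85, 0.59 to 1.10), Klrc1 (0.61, 0.41 to 0.81) and Klrc2 (0.62, 0.36 to 0.88). Klrc2 encodes the activating receptor NKG2C, a near copy of NKG2A, so the counts of this pair are uncertain. Klrk1 stood at 753 and 1011 CPM (0.42, 0.33 to 0.52). Of 10 other receptor genes Cd2 (0.93) and Cd69 (0.76) were higher and none was lower (median 0.034, against 0.029 for all genes). Of 16 adaptor and signalling genes Cd247, which encodes the CD3 zeta chain, was higher (0.61, 0.28 to 0.94), and Tyrobp had a log2 ratio of 0.04 (−0.01 to 0.08). Of 14 transcription factor genes Klf2, Stat4 (0.73) and Bhlhe40 (0.79) were higher, while Eomes (0.15, −0.10 to 0.41) and Tbx21 (0.10, −0.25 to 0.45) differed by less than counting error. Without the 6 WT cells with stroma markers Klrc1 (0.51), Klrc2 (0.55) and Cd247 (0.53) were below 1.5-fold, as was Stat4 (0.53) in counts thinned to 4000 UMIs.

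**Figure D5:**
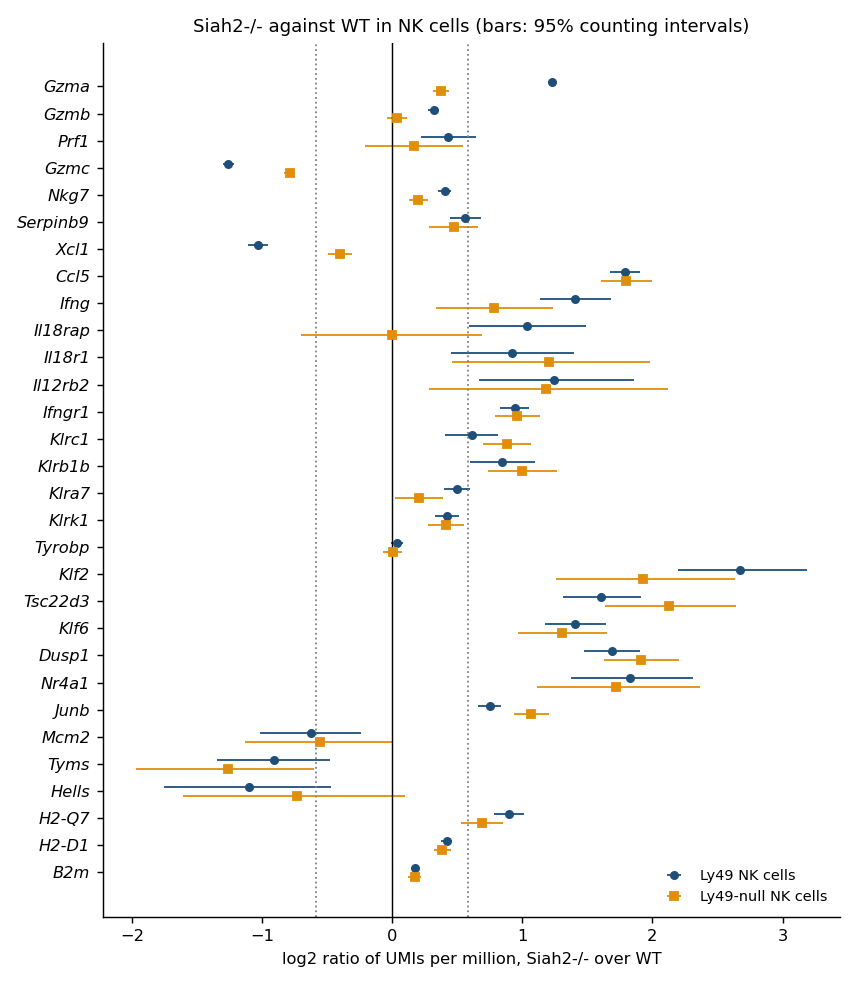
Log2 ratio of UMIs per 1000000, Siah2-/- over WT (x axis), for named genes (y axis) in members (blue circles) and in Ly49-null NK cells (no UMI of Klra4, Klra8 or Klra9, orange squares), with 95% counting intervals. Dotted lines mark 1.5-fold. Gzma and Xcl1 lay at 1.23 and −1.03 in members and at 0.37 and −0.40 in Ly49-null cells, whereas Ccl5 lay at 1.79 and 1.80.

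Genes of egress and quiescence formed the list with the largest share of higher genes. All 8 tested genes of this list were over 1.5-fold higher in Siah2-/- members (median log2 ratio 1.03, against 0.029 for all genes). The 13 genes of the list summed to 1138 CPM in WT and 2423 CPM in Siah2-/- members. The sum was also higher in the Siah2-/- library in Ly49-null cells (1135 and 2540 CPM), CD8 T cells (941 and 2083 CPM), macrophages (1334 and 2137 CPM) and free RNA (1419 and 2317 CPM). Klf2, a transcription factor that drives exit from tissue, had 41 UMIs in WT and 268 UMIs in Siah2-/- members, 18.4 and 118 CPM (2.68, 2.20 to 3.19). It was detected in 3.90% of WT and 25.6% of Siah2-/- members at 4000 UMIs and in 11.7% and 36.8% unthinned. Tsc22d3, which encodes the glucocorticoid-induced protein GILZ, stood at 55.6 and 169 CPM (1.61, 1.31 to 1.91). Btg1 (0.95), Btg2 (0.91), Klf6 (1.41) and Txnip (1.11) were higher as well. Cdkn1b (0.85, 0.25 to 1.46) had 37 and 68 UMIs and stood at −0.022 in counts thinned to 4000 UMIs. In Ly49-null cells Klf2 had a log2 ratio of 1.93 (1.26 to 2.64) and Tsc22d3 one of 2.13 (1.64 to 2.64). Free RNA held Klf2 at 125 and 253 CPM, after whose subtraction the ratio in members was 2.85, and it was 3.51 in counts thinned to 4000 UMIs.

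Immediate early genes, which respond to stimulation and to tissue handling, were higher in 9 and lower in 1 of 15 (median 0.61). Over all genes these shares were 7.91% and 3.71%. Dusp1, a phosphatase of MAP kinases, stood at 108 and 347 CPM (1.69, 1.48 to 1.90), Fos at 142 and 336 CPM (1.24, 1.05 to 1.44) and Nr4a1 at 22.4 and 79.9 CPM (1.83, 1.37 to 2.31). Tnfaip3, an inhibitor of NF-kB signalling, stood at 37.2 and 104 CPM (1.48, 1.11 to 1.85). Free RNA of the Siah2-/- library was likewise richer in Dusp1 (448 and 913 CPM) and Fos (790 and 1387 CPM). Egr1 was the lower gene (−0.70, −1.28 to −0.14), and stood at −0.0090 without the 6 WT cells with stroma markers.

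Cell cycle genes were compared between the genotypes, where 7.91% of all genes were higher and 3.71% lower. Of 20 S phase genes none was higher and 6 were lower (median −0.34), namely Hells (−1.10, and −0.25 with the rule applied to thinned counts), Tyms (−0.90), Rpa2 (−0.69), Mcm2 (−0.62), Prim1 (−0.61) and Mcm5 (−0.60). Of 25 G2/M genes 1 was higher and 3 were lower (median −0.20), including Cks1b (−0.74) and Cdk1 (−0.68). With the rule applied to thinned counts, Rpa2 (−0.48), Mcm2 (−0.32), Prim1 (−0.42), Mcm5 (−0.33), Cks1b (−0.40) and Cdk1 (−0.38) were also below 1.5-fold. A UMI of Mki67 or Top2a was seen in 14.6% (10.1 to 20.2) of WT and 10.2% (6.80 to 14.4) of Siah2-/- members at 4000 UMIs, a difference of −4.48 points with overlapping intervals. Without thinning the shares were 22.9% and 16.5%. Ly49-null cells showed 18.6% and 9.52% at 4000 UMIs, CD8 T cells 44.7% and 19.8%, and macrophages 12.6% and 6.52%. The S phase list summed to 1545 and 1246 CPM in WT and Siah2-/- members and to 1970 and 1239 CPM in Ly49-null cells. It summed to 3372 and 2072 CPM in CD8 T cells and to 1131 and 705 CPM in macrophages. Naive T cells, chosen as a background of resting cells, numbered only 15 in WT, of which 4 had such a UMI, and 7 of 80 did in Siah2-/-, so that the part of free RNA was not tested by them.

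By size, and leaving out genes with over 25% of a library's UMIs in 1 cell, the highest ratios in Siah2-/- members were those of Klf2, Sult2b1, Ctla4, Nr4a1, Ccl5, Rps27rt, Dusp1, Gm9844, Gm8797 and Trim30d. Sult2b1, which encodes a sulfotransferase for cholesterol, stood at 13.5 and 54.8 CPM (2.03, 1.44 to 2.65, and 1.38 with the rule applied to thinned counts). Ctla4, a checkpoint receptor better known from T cells, stood at 22.4 and 81.2 CPM (1.86, 1.40 to 2.34), below its level in free RNA (103 and 133 CPM). In thinned cells Ctla4 was detected in 8.78% of WT and 27.8% of Siah2-/- members. It was also seen more often in Siah2-/- Ly49-null cells (9.8% and 37.1%) and CD8 T cells (24.4% and 45.7%). Rps27rt (217 and 727 CPM), Gm9844 and Gm8797 are copies of other genes, so their counts are uncertain. The lowest ratios were those of Csrp2, Tsc22d1, Cd81, Gsto1, Gng11, Tspan31, Anxa5, Gzmc, Tmsb15a and Nrgn. Csrp2 stood at 46.7 and 3.51 CPM (−3.73, −4.98 to −2.70) and Cd81 at 60.6 and 9.65 CPM (−2.65, −3.37 to −1.99). Without the 6 WT cells that held 3 or more tumor or stroma markers, Csrp2 was at −1.32 and Cd81 at −0.21, and the number of lower genes went from 164 to 109. Tsc22d1 went from −3.10 to −1.83 without these cells, and Gng11 from −1.63 to −0.83 without them and to −0.055 without the 5% of cells with the most UMIs. With the rule applied to thinned counts, Gsto1 went from −1.72 to −0.998, Tspan31 from −1.35 to −0.79 and Anxa5 from −1.33 to −0.78. Tmsb15a (33.2 and 14.0 CPM) and Nrgn (127 and 53.5 CPM), which encodes a calmodulin-binding protein, lay above free RNA in both libraries.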

How the data were processed

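Droplet 3′ v2 libraries, 1 per genotype, were analysed from the deposited counts of UMIs per gene and barcode. Per the methods and labels, the authors demultiplexed with bcl2fastq and counted with Cell Ranger on mm10 (GRCm38), whose versions are not given in the sources used here. They kept cells outside the lowest and highest 2% of genes per cell and with at most 10% mitochondrial transcripts. A deposited table of natural log values per 10000 UMIs, holding 4512 WT and 5563 Siah2-/- cells, served only to name its cells. The rule was applied to the authors' raw table. Counts were taken from the unfiltered matrices for its 14654 genes and 10100 cells, since 357 WT and 438 Siah2-/- genes with few UMIs were listed at 0 there.

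UMIs were summed over members per library and scaled to 1000000 (CPM). Intervals are exact Poisson for CPM, exact conditional binomial for ratios and Clopper-Pearson for shares, at 95%. A gene was called past 1.5-fold with a mean of at least 20 CPM. Shares of cells with a UMI were compared after thinning to 4000 UMIs, while those of the label check, of Klra4, Klra8 and Klra9 among members, of the count of Ly49 genes per member and of cells left out for ILC1 genes came from unthinned counts. No doublet caller was run, and leaving out the 5% of cells of a library with the most UMIs was an alternative. Named genes came from gene lists by role, from the 10 highest and 10 lowest ratios in which no cell held over 25% of a library's UMIs, and from genes past 1.5-fold in opposite directions in members and Ly49-null cells. Members and lists were chosen with earlier results of these data known. Python 3.11.15, numpy 2.4.6, scipy 1.17.1 and pandas 2.3.3 were used, and the calculations were tested on simulated data.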

Additional observations from a re-analysis of the deposited data

Results flagged for a closer look

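For 7 genes the Siah2-/- over WT ratio was past 1.5-fold in opposite directions in members and in Ly49-null NK cells. The log2 ratios in members and in Ly49-null cells were −0.71 and 0.62 for Camk2d, 0.77 and −1.20 for Ctsh, 1.32 and −1.85 for Gzmf, −0.62 and 0.81 for Oaz2, 0.81 and −0.59 for Pacsin2, 0.60 and −2.62 for Rgs10, and −0.61 and 1.24 for Wls. With 1 library per genotype the difference between the cell groups was not tested. Ctsh (−0.43), Gzmf (−1.58) and Oaz2 (0.33) had the other sign in members when the rule was applied to thinned counts, and Wls (0.85) had it in counts thinned to 4000 UMIs. Camk2d stood at −0.086 without the 5% of cells with the most UMIs, and Rgs10 at 0.040 with the rule applied to thinned counts. Of the 7 genes, 1 was past 1.5-fold in opposite directions in each of these 3 settings. Most of these genes were low: in WT members Camk2d stood at 34.6 CPM, Ctsh at 18.8 CPM, Pacsin2 at 23.3 CPM and Rgs10 at 17.9 CPM. Free RNA could account for 62.4% and 72.6% of the Ctsh UMIs of WT and Siah2-/- members and for 33.3% and 37.2% of those of Rgs10. Gzmf had 86.2% of its Siah2-/- UMIs in 1 member, which was not the case for the other 6 genes.

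Barcodes that the authors did not keep in the table also passed the rule. Among barcodes with at least 1000 UMIs outside the table, 384 of 5550 in WT and 241 of 3954 in Siah2-/- did so, with a median of 4257 and 3614 UMIs over the barcodes that passed.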

How the results depend on the processing

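No paired analysis was possible because each genotype had 1 library, and for the same reason no library could be left out. In 2526 of the alternatives for single genes and medians of gene lists the value stayed within the limits set for it, in 270 it moved and in 23 it changed sign. The cause of these moves was not tested unless the setting itself removes genes or cells. With a floor of 50 and 10 CPM in place of 20 CPM, 150 and 636 genes were higher and 40 and 365 lower in Siah2-/- members. The genes higher in members than in Ly49-null cells were then 6 and 39, the lower ones 14 and 71, and those in opposite directions 1 and 42. In counts thinned to 4000 UMIs, 262 genes were lower in Siah2-/- members, 28 were higher and 58 lower in members than in Ly49-null cells, and 38 went in opposite directions. Of the genes first called, 270 of 350 higher and 87 of 164 lower in Siah2-/- members, 8 of 18 higher and 23 of 30 lower over Ly49-null cells and 1 of 7 in opposite directions were among these. There Wls stood at 0.85, Cdkn1b at −0.022 and Cdkn1a (members over Ly49-null, WT) at −0.27. With the rule applied to thinned counts, the log2 ratio of the share was 0.45, 10 genes were higher in members and 16 went in opposite directions, of which 4 and 1 had been called before. Log2 ratios then were −0.43 for Ctsh, −1.58 for Gzmf, 0.33 for Oaz2, −0.50 for Gzme and −0.25 for Gzmg, and over Ly49-null cells −0.11 and −0.17 for H2-DMb1 and −4.82 and −3.38 for Gzmg in WT and Siah2-/-. Without the 5% of cells with the most UMIs, 3 genes went in opposite directions, 1 of them among the 7, and ratios were −0.996 for Gzmf, 0.15 for Oaz2, 0.043 for Wls, −0.12 for Gzmd, −0.43 for Gzme, −1.19 for Gzmg, 0.017 for Egr1, and for Gzmg over Ly49-null cells −1.42 and −2.99. Without cells holding an Mki67 or Top2a UMI, 16 genes went in opposite directions and Gzmg over Ly49-null cells in WT was at −1.37. With the mean over cells, 3 genes went in opposite directions. Leaving out cells with stroma markers, or cells holding Tmem176a, Tmem176b or Il7r, was chosen after seeing the data. The former left 109 lower genes, 4 in opposite directions and Oaz2 at 0.10, and the latter 11 in opposite directions. Counting error limits genes near the floor.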

Other observations

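Other gene groups of members were compared between the genotypes in the same way, where 7.91% of all genes were higher and 3.71% lower. Of 11 genes of class I antigen presentation, which include the peptide transporter genes Tap1 and Tap2 and the tapasin gene Tapbp beside the MHC genes, 3 were higher and none lower. The 3 were the nonclassical MHC genes H2-Q4 (116 and 219 CPM, log2 ratio 0.92), H2-Q6 (0.80) and H2-Q7 (420 and 785 CPM, 0.90). These Q region genes are near copies, so their counts are uncertain. The classical genes H2-K1 (0.39, 0.34 to 0.45) and H2-D1 (0.42, 0.38 to 0.46) and B2m (0.18, 0.15 to 0.21) stayed below 1.5-fold. Of 19 genes of the type I interferon response, Ifit2 was higher (0.68) and Ifitm3 lower (−0.60, and −0.42 without the 6 WT cells with stroma markers). Of 16 interferon gamma response genes, Irf1 was higher (0.64) and Iigp1 lower (−1.13, and −0.45 without the same cells).

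Of 20 oxidative phosphorylation genes none was called in either direction (median log2 ratio −0.04), where 7.91% of all genes were higher and 3.71% lower. Of 15 glycolysis genes 2 were higher and none lower (median 0.24, against 0.029 for all genes, and 0.039 with the counts of each cell thinned to 4000 UMIs), and the 20 genes of the list summed to 6671 CPM in WT and 7437 CPM in Siah2-/- members. The 2 were Pgk1 (66.4 and 157 CPM, 1.24, 0.96 to 1.52) and Slc16a3 (0.84, 0.33 to 1.38), which encodes a lactate exporter. Of 10 genes of the mature NK list 4 were higher, against 7.91% of all genes. Among them was Itgb2 (0.88, and 0.52 with the rule applied to thinned counts), while Klrg1, a late maturation marker, stood at 82.6 and 63.2 CPM (−0.39, −0.71 to −0.06). Of 10 genes of the immature NK list 3 were higher, among them Lef1 (0.81, and 0.53 in that setting), and Xcl1 was lower.

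The sets of members with different Ly49 genes differed in Klra1. It stood at 171 and 180 CPM in WT and Siah2-/- members with Klra4 or Klra8 and no Klra9, and at 40.9 and 75.8 CPM in members with Klra9 and Klra4 or Klra8. Members with Klra9 alone, 24 in WT and 30 in Siah2-/-, held it at 159 and 124 CPM. These levels rest on 190 and 225, 35 and 59, and 42 and 31 Klra1 UMIs in the order given. A single member held up to 27 Klra1 UMIs in each library, so a few cells can set them. Gzma was higher in Siah2-/- than in WT in each of these 3 sets, at 14129 against 4403 CPM in members with Klra9 alone.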
